A study of Homo sapiens with 17 samples.

Results

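The MYC, MAX and MXD network is a set of transcription factors that act as pairs with a shared small partner, MAX. The 10 genes described here (*MYC*, *MYCN*, *MYCL*, *MAX*, *MXD1*, *MXD3*, *MXD4*, *MXI1*, *MNT* and *MGA*) were chosen by symbol as its core members, and all 10 were found among the 60664 genes measured. The RNA-Seq data came from SF8628, an established line of diffuse midline glioma cells (labelled DIPG) grown as a monolayer in medium with serum. Cells received the solvent DMSO or 1 μM AZD5153, a small molecule inhibitor of BET bromodomains. Treatment lasted 24 or 48 hours, and with 3 replicate libraries per group the 2 DMSO groups served as the control at their own time. The comparison addressed how RNA levels in these cells differed with BET bromodomain inhibition. All values come from a single cell line, and the labels do not say whether replicates were separate cultures, so p-values measure the spread between these libraries, which may be technical.

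MYC, MYCN and MYCL pair with MAX, bind the E-box sequence and activate genes for growth, ribosome production and metabolism. The MXD proteins, MXI1 (also known as MXD2) and MNT pair with the same MAX and bind the same sites, where they recruit the SIN3 corepressor and lower transcription. MGA joins MAX to the noncanonical Polycomb complex PRC1.6, which silences its own set of genes. *MYC* is the member that BET inhibitors are best known for, since they lower its RNA in many blood cancers.

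The libraries held 15759148 to 27335220 reads on genes. The deposited values are normalized counts, that is, reads per gene divided by 1 scaling factor per library. In all, 8 members reached the mean of 10 normalized counts that a gene needed to be tested with limma, as did 15599 of all 60664 genes. *MYCN* and *MYCL* did not. Replicate 1 of the DMSO 24 h group stood apart from its 2 partners, as a chi-square of 18.5 and 28.3 per degree of freedom against 5.29 for that pair and 2.13 to 5.61 for the pairs of the other groups. Its values are named below where leaving it out changed the call of a member. Of the glial and progenitor markers, *VIM*, *CD44*, *NES*, *SOX2*, *S100B* and *GFAP* were detected in all 12 libraries, *PDGFRA* had a mean of 2.66 normalized counts, and *OLIG1* and *OLIG2* were at 0 reads in all 12. The summed level of these 9 markers ran from 28340 to 37660 in DMSO and from 26330 to 28300 with AZD5153 at 24 h, and from 22190 to 22430 and 22060 to 23640 at 48 h. Most of that sum was *VIM*, while *NES* had means of 2050 and 758 in DMSO and AZD5153 at 24 h and of 1993 and 544 at 48 h, and *CD44* of 6712 and 7531 at 24 h and of 4647 and 6725 at 48 h. Of 12 markers of other cell types, *AIF1*, *CDH5* and *MOG* were at 0 in all 12 libraries, and the neuronal gene *SYT1* was at 634 to 903 normalized counts in every library. *LUM* had means of 1968 and 544 in DMSO and AZD5153 at 24 h and of 1295 and 249.5 at 48 h, and *PECAM1* of 289 and 43.3 at 24 h and of 528 and 30.5 at 48 h. The summed level of the 12 ran from 45390 to 57580 in DMSO and 16240 to 16790 with AZD5153 at 24 h, and from 57460 to 62340 and 19270 to 19560 at 48 h. Most of that sum was *COL1A1*, a collagen gene of fibroblasts, and the part of these markers in the results was not tested. Since RNA was pooled from many cells, fewer cells of a kind and less RNA per cell cannot be told apart.

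With AZD5153, *MXD4*, *MYC* and *MXD1* rose and *MXI1* and *MNT* fell at both times. At 24 h, 7 of the 8 tested members passed the test at an adjusted p under 0.05, 4 higher (*MYC*, *MXD1*, *MXD4*, *MGA*) and 3 lower (*MXD3*, *MXI1*, *MNT*). Of all tested genes, 33.9% were called higher and 34.6% lower in that comparison, so a call by itself was common. At 48 h, 6 of 8 passed, 3 higher (*MYC*, *MXD1*, *MXD4*) and 3 lower (*MAX*, *MXI1*, *MNT*), against 33.1% of all tested genes called higher and 33.9% called lower (5159 and 5294 genes, or 3896 and 6511 with equal library totals). The median absolute log2 fold change of the 8 members was 0.78 at 24 h and 0.81 at 48 h, and that of all tested genes was 0.56 and 0.54. The AZD5153 and DMSO libraries did not overlap for 5 of the 8 members at 24 h and for 7 of 8 at 48 h, where this held for 68.8% and 74.7% of all tested genes. The AZD5153 effect differed between the times in 2 members, *MYC* and *MGA*, in both cases with a lower log2 fold change at 48 h. Over all tested genes, 14.4% were called higher and 10.1% lower in this difference of the effects. With an absolute log2 fold change of 1 required as well, 3 of 8 members were called at 24 h (*MYC*, *MXD1* and *MXD4*), 1 of 8 at 48 h (*MXD4*) and 0 in the difference, where 26.5%, 25.4% and 4.83% of all tested genes were. Between the times that rule left 0 members in DMSO and 1 with AZD5153 (*MYC*), against 3.72% and 3.67% of all tested genes.

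**Figure D1:**
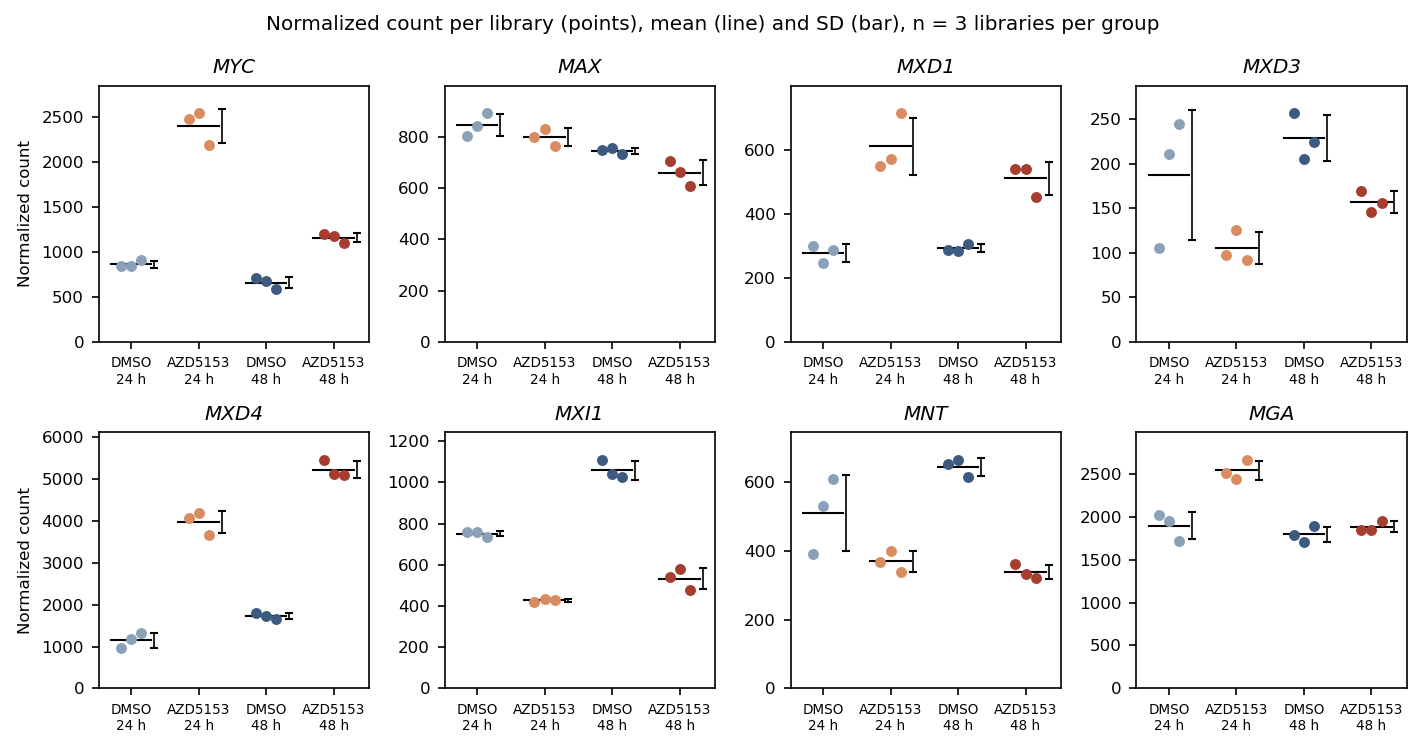
Normalized count (vertical axes, starting at 0) of each tested member in the 12 libraries. Points are libraries, horizontal lines group means and bars the SD over 3 libraries, and the AZD5153 libraries of *MXD4* (3677 to 5463) lay above all of its DMSO libraries (956 to 1809.6).

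*MYC* encodes the activator from which the network takes its name. The gene lies at chr8:127735434-127742951 on the plus strand of GRCh38. In the DMSO libraries at 24 h it had 839, 846 and 910.2 normalized counts, and with AZD5153 it had 2482, 2542 and 2186. At 48 h, the DMSO libraries had 705, 681 and 592 and the AZD5153 libraries 1196, 1182 and 1098. The lowest AZD5153 library was above the highest DMSO library at each time, and the AZD5153 libraries at 48 h lay between the DMSO and AZD5153 libraries at 24 h. The log2 fold change with AZD5153 was 1.47 at 24 h (SE 0.08, adjusted p = 1.31e-10, limma), or 2.77-fold. At 48 h it was 0.82 (SE 0.08, adjusted p = 1.51e-07), or 1.76-fold. The effect was smaller by 0.66 on the log2 scale at 48 h (95% interval of the difference -0.89 to -0.42, adjusted p = 0.00056). *MYC* fell from 24 to 48 h in DMSO (log2 fold change -0.39, adjusted p = 0.0011) and with AZD5153 (-1.05, adjusted p = 1.25e-07). Those contrasts share their libraries with the treatment comparisons. *CASC11*, which overlaps *MYC* on the other strand, had a mean of 2.35 normalized counts. *PVT1*, the long noncoding RNA next to *MYC*, went from a mean of 666 in DMSO to 760 with AZD5153 at 24 h (log2 fold change 0.19, adjusted p = 0.027, not called with equal library totals) and from 647 to 569.7 at 48 h (-0.18, adjusted p = 0.035, not called with quantile normalization).

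The other MYC family members were near or at the detection limit. *MYCN*, the paralog that drives neuroblastoma, had 0 reads in all 12 libraries, where 3 reads, the limit that a count of 0 allows, correspond to 2.14 to 4.02 normalized counts depending on the library. That limit covers counting error only. *MYCL*, the paralog first found in lung cancer, had 2.25, 2.14 and 0 normalized counts in DMSO and 0, 0 and 1.22 with AZD5153 at 24 h. At 48 h it had 0, 0.887 and 0 in DMSO and 0.912, 5.43 and 2.57 with AZD5153. These values come from 5 and 1 reads at 24 h and 1 and 9 reads at 48 h. In the fit without a minimum mean, the log2 fold change of *MYCL* was -0.73 at 24 h (adjusted p = 0.41) and 1.51 at 48 h (adjusted p = 0.062), neither called, and at such counts a fitted value depends on the pseudocount. The antisense transcripts *MYCNOS* and *MYCL-AS1* had 0 reads in every library and means of at most 0.285 normalized counts, respectively.

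*MAX*, the shared partner, had the smallest log2 fold change of the tested members at 24 h. It had 805, 841 and 892 normalized counts in DMSO and 800.4, 832 and 764 with AZD5153 at 24 h. The 48 h libraries had 749, 756 and 732 in DMSO and 707, 662 and 609 with AZD5153. The groups overlapped at 24 h and were narrowly separate at 48 h, with 732 for the lowest DMSO library and 707 for the highest AZD5153 library. The log2 fold change was -0.08 at 24 h (95% interval -0.23 to 0.07, adjusted p = 0.33) and -0.18 at 48 h (95% interval -0.33 to -0.03, adjusted p = 0.037). The call at 48 h was lost without the minimum mean (adjusted p = 0.066), with a replicate block (0.053) and without any of 5 single libraries (0.056 to 0.17), namely each DMSO 48 h library and AZD5153 48 h replicates 2 and 3. It held in 14 of 21 alternative fits. With equal library totals *MAX* was called at both times, with -0.20 at 24 h (adjusted p = 0.020) and -0.35 at 48 h (adjusted p = 0.00043). That scaling moved the median of all tested genes to -0.12 and -0.17. *FNTB*, which shares 822 bases of exon with *MAX* on the other strand, had a mean of 43.8 normalized counts, and the strand setting of the read counting is not given in the sources used here.

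*MXD4*, *MXD1* and *MNT* had an E-box, which MAX dimers bind, or 2 CCAAT boxes in the promoter window, and these windows are shown for that reason. Each line gives the 250 bases before the RefSeq transcription start on GRCh38.p14, 5′ to 3′ on the strand of the gene, with the E-box CACGTG and the CCAAT box (CCAAT, or ATTGG on the other strand) in capitals. The windows are chr4:2262110-2262359 (minus strand) for *MXD4*, chr17:2401061-2401310 (minus strand) for *MNT* and chr2:69914859-69915108 (plus strand) for *MXD1*.
MXD4: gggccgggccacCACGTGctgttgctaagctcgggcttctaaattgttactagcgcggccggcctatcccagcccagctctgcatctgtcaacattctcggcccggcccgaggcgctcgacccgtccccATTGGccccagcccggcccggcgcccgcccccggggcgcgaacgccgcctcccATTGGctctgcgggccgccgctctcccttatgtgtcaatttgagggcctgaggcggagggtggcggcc
MNT: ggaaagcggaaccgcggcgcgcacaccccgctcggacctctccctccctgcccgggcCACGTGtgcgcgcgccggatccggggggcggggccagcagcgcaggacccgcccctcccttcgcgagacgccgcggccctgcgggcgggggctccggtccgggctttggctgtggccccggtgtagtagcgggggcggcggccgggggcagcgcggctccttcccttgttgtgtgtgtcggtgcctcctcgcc
MXD1: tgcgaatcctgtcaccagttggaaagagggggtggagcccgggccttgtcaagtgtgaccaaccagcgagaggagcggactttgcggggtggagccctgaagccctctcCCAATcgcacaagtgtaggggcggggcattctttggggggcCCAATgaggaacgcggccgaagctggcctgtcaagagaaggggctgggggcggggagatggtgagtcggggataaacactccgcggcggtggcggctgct
The E-box lay 238 to 233 bases before the start in *MXD4* and 193 to 188 bases before it in *MNT*. In all, 14 windows of 9 members were searched, not including *MYC*, and these 2 held an E-box, where 6.35% of 35116 RefSeq promoter windows of this length did. A CCAAT box occurred 2 times in *MXD1*, 2 times in *MXD4*, and 1 time in *MXD3* and in a window of *MGA*. The 3 windows of *MXI1*, which was called at both times too, held neither motif. Of all windows, 32.0% held the CCAAT box and 9.53% held it 2 or more times. A match is a run of letters in these windows, and binding was not measured here.

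*MXD4*, a repressor of the MXD family, had the largest increase of the 8 tested members at each time. It had 956, 1184 and 1313 normalized counts in DMSO and 4073, 4182 and 3677 with AZD5153 at 24 h. The libraries at 48 h had 1809.6, 1738 and 1668 in DMSO and 5463, 5134 and 5091 with AZD5153. The groups were far apart at each time, and the spread between replicates was small beside the gap. AZD5153 gave a log2 fold change of 1.80 at 24 h (SE 0.09, adjusted p = 5.55e-11), or 3.48-fold, and 1.59 at 48 h (SE 0.09, adjusted p = 2.46e-10), or 3.01-fold. The difference between the times was -0.21 (95% interval -0.48 to 0.06, adjusted p = 0.25). Without DMSO 24 h replicate 3 that difference was -0.31 and passed the test (adjusted p = 0.038), and without DMSO 24 h replicate 1 it was -0.08 (adjusted p = 0.48). *MXD4* also rose with time, by 0.61 on the log2 scale in DMSO (adjusted p = 9.07e-05) and by 0.40 with AZD5153 (adjusted p = 0.0033).

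*MXD1*, the MXD protein first described as MAD1 and known from differentiating cells, also rose. At 24 h it had 299.8, 248 and 286 normalized counts in DMSO and 549.7, 571 and 714 with AZD5153. The corresponding values at 48 h were 287, 283 and 307 in DMSO and 539.8, 540.0 and 451 with AZD5153. The DMSO libraries of both times lay together and all AZD5153 libraries lay above them. *MXD1* had a log2 fold change of 1.13 at 24 h (SE 0.11, adjusted p = 2.56e-07) and 0.80 at 48 h (SE 0.11, adjusted p = 1.26e-05). The effects at the 2 times could not be told apart (difference -0.33, 95% interval -0.67 to 0.01, adjusted p = 0.15). *SNRNP27*, which shares 237 bases of exon with *MXD1* on the same strand, had a mean of 452 normalized counts and log2 fold changes of 0.20 at 24 h (adjusted p = 0.23) and 0.16 at 48 h (adjusted p = 0.33).

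*MXI1*, a repressor that competes with MYC for MAX, moved in the opposite direction to *MXD4* and *MXD1* with AZD5153. It had 761, 759 and 736 normalized counts in DMSO and 419.7, 435 and 427 with AZD5153 at 24 h. After 48 h the counts were 1109.7, 1039 and 1027 in DMSO and 543, 579 and 477 with AZD5153. The groups did not overlap at either time, and the AZD5153 level at 48 h remained below the DMSO level at 24 h. The log2 fold change was -0.81 at 24 h (SE 0.08, adjusted p = 1.22e-07) and -0.99 at 48 h (SE 0.08, adjusted p = 1.13e-08), which left 0.569 and 0.502 of the DMSO level. The difference between the times was -0.18 (95% interval -0.41 to 0.05, adjusted p = 0.25). From 24 to 48 h *MXI1* rose by 0.49 in DMSO (adjusted p = 0.00015) and by 0.31 with AZD5153 (adjusted p = 0.006), both on the log2 scale.

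*MXD3*, an MXD protein linked to the S phase of the cell cycle, had the widest intervals of the tested members. It had 106, 211 and 245 normalized counts in DMSO and 97.9, 126 and 91.8 with AZD5153 at 24 h. In the 48 h groups the counts were 257, 206 and 225 in DMSO and 169.6, 146 and 156 with AZD5153. The groups overlapped at 24 h because of DMSO replicate 1, whose 106 lay within the range of the AZD5153 libraries, and they did not overlap at 48 h. In the fit, its log2 fold change was -0.75 at 24 h (SE 0.23, adjusted p = 0.0098) and -0.54 at 48 h (95% interval -1.04 to -0.04, adjusted p = 0.054). Without DMSO 24 h replicate 1 the value at 24 h was -1.12, and without DMSO 24 h replicate 3 it was -0.52 and the call was lost (adjusted p = 0.054). The difference between the times was 0.22 (adjusted p = 0.68), or 0.58 and called without DMSO 24 h replicate 1 (adjusted p = 0.04). At 48 h edgeR (adjusted p = 0.032) and DESeq2 (adjusted p = 0.023) on the recovered reads did call *MXD3* lower, as did the fit without DMSO 24 h replicate 1 (adjusted p = 0.0014). So did the fits without DMSO 24 h replicate 3 (adjusted p = 0.027), with a pseudocount of 10 (0.049) and with equal library totals (-0.71, adjusted p = 0.013). These were 6 of 21 alternative fits. Leaving out a DMSO 24 h library kept the 48 h value at -0.54 and changed only the estimate of spread that the groups share. With quantile normalization the 48 h value was -0.26 (adjusted p = 0.32). *PRELID1*, which shares 1148 bases of exon with *MXD3* on the other strand, had a mean of 1489 normalized counts and log2 fold changes of 0.13 at 24 h (adjusted p = 0.44) and 0.24 at 48 h (adjusted p = 0.16). *RAB24*, which shares 926 bases on the same strand, had a mean of 55.1, and it rose at 24 h (log2 fold change 1.11, adjusted p = 0.0038), with a log2 fold change of 0.32 at 48 h (adjusted p = 0.36). How reads in the shared exons were assigned was not tested, so the level of *MXD3* is uncertain.

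*MNT*, the broadly expressed MAX-binding repressor, fell at both times. It had 391, 532 and 609 normalized counts in DMSO and 367, 401 and 340.3 with AZD5153 at 24 h. By 48 h the counts were 655, 666 and 615 in DMSO and 361, 334 and 321 with AZD5153. At 24 h DMSO replicate 1 again lay within the AZD5153 range, and at 48 h the groups were well apart. The log2 fold change was -0.44 at 24 h (SE 0.13, adjusted p = 0.0058, or -0.63 without that replicate) and -0.93 at 48 h (SE 0.13, adjusted p = 8.46e-06). The 24 h value was -0.31 without DMSO 24 h replicate 3 (adjusted p = 0.033) and -0.31 with quantile normalization (adjusted p = 0.032), both called. The difference between the times was -0.48 (95% interval -0.87 to -0.10) and missed the threshold after adjustment (adjusted p = 0.062). It passed with equal library totals (0.041), with quantile normalization (0.042) and without DMSO 24 h replicate 3 (-0.62, adjusted p = 0.0084), and without DMSO 24 h replicate 1 it was -0.30 (adjusted p = 0.079).

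*MGA*, the largest protein of the network and the MAX partner within PRC1.6, was called higher at 24 h and not at 48 h. At 24 h it had 2022, 1955 and 1722 normalized counts in DMSO and 2518, 2446 and 2666 with AZD5153. For 48 h the values were 1787, 1709 and 1892 in DMSO and 1847, 1847 and 1959 with AZD5153. The groups were separate at 24 h and overlapped at 48 h. *MGA* had a log2 fold change of 0.42 at 24 h (SE 0.07, adjusted p = 3.1e-05) and 0.07 at 48 h (95% interval -0.07 to 0.21, adjusted p = 0.36). At 48 h the sign turned with equal library totals (-0.10) and with quantile normalization (-0.04), neither of them called. The effect was lower at 48 h by 0.35 on the log2 scale (95% interval of the difference -0.55 to -0.16, adjusted p = 0.012).

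**Figure D2:**
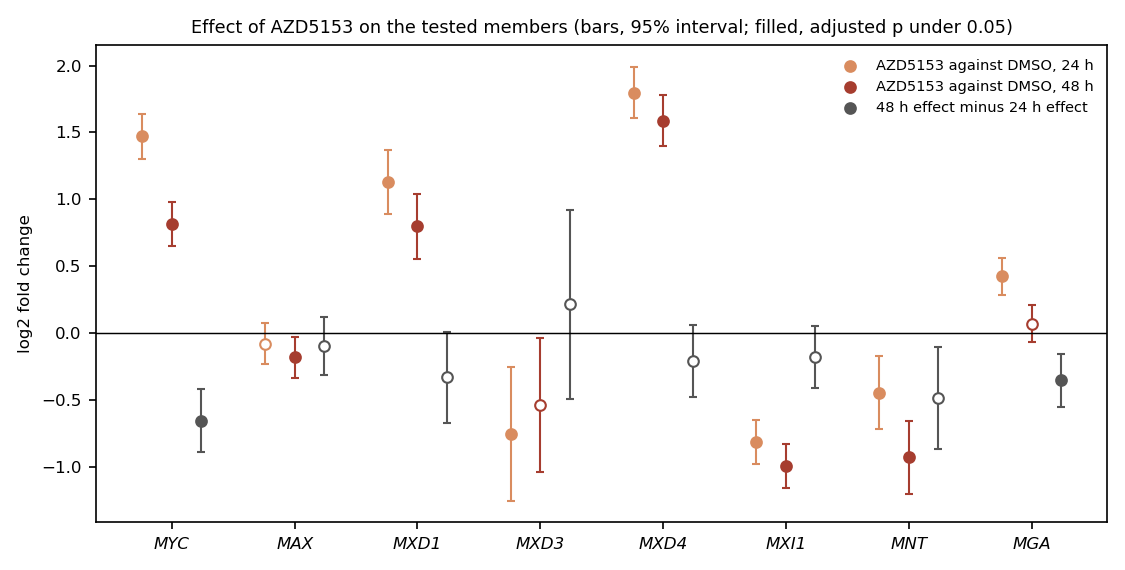
Log2 fold change (vertical axis) of the 8 tested members with AZD5153 at 24 h and 48 h, and the 48 h effect minus the 24 h effect, with 95% intervals from the limma fit. Filled points had an adjusted p under 0.05, and *MYC* (-0.66) and *MGA* (-0.35) are the 2 filled points among the differences.

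Some members also differed between 24 and 48 h within a treatment. In DMSO, 4 of 8 were called between 24 and 48 h, *MYC* lower and *MXD4*, *MXI1* and *MNT* higher, where 16.4% of all tested genes were called higher and 19.3% lower. The rise of *MNT* (0.36, adjusted p = 0.038) was lost without DMSO 24 h replicate 1 (0.18, adjusted p = 0.16), without any of the 3 DMSO 48 h libraries (adjusted p = 0.062 to 0.11), without the minimum mean (0.06) and with a replicate block (0.051). With AZD5153, 5 of 8 were called, *MXD4* and *MXI1* higher and *MYC*, *MAX* and *MGA* lower, against 15.8% of all tested genes called higher and 13.8% lower. *MAX* fell by 0.28 (adjusted p = 0.0084) and *MGA* fell by 0.43 (adjusted p = 0.00014) on the log2 scale under the compound. Without DMSO 24 h replicate 1, *MXD1* (-0.26, adjusted p = 0.047) and *MXD3* (0.58, adjusted p = 0.0016) were called with AZD5153 as well. No DMSO library enters the AZD5153 contrast, so these log2 fold changes were those of the main fit. Only the estimate of spread that the groups share changed. The same omission led to a call of *MAX* in DMSO (-0.21, adjusted p = 0.028). Without DMSO 24 h replicate 3, *MXD3* was called with AZD5153 (adjusted p = 0.037) and in DMSO (0.60, adjusted p = 0.046). *MXD4* was called higher with the compound at both times and with time in both treatments, which held for no other member.

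Levels of different genes were compared as normalized counts per kilobase of merged exons. In DMSO at 24 h *MXD4* (mean 167), *MYC* (142), *MAX* (135) and *MXI1* (127) headed the order, and each of the first 3 overlapped the next in its range over the libraries. *MGA* followed at 94.6, *MNT* at 58.7, *MXD1* at 43.8 and *MXD3* at 39.5, of which *MNT*, *MXD1* and *MXD3* overlapped their neighbours. With AZD5153 at 24 h *MXD4* (579) and *MYC* (393) stood clear of *MAX* (128) and *MGA* (127), which overlapped each other. Below them came *MXD1* (96.3), *MXI1* (72.3), *MNT* (42.5) and *MXD3* (22.2), each clear of the next.

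At 48 h in DMSO the order was *MXD4* (253), *MXI1* (179), *MAX* (119), *MYC* (108), *MGA* (89.5) and *MNT* (74.2), each clear of the next, and then *MXD3* (48.3) and *MXD1* (46.0), which overlapped. With AZD5153 at 48 h it was *MXD4* (761) and *MYC* (189.7), each clear of the next, followed by *MAX* (105), *MGA* (93.9), *MXI1* (90.2) and *MXD1* (80.3), in which each overlapped the next. *MNT* (38.9) and *MXD3* (33.1) came last. With the length of the longest transcript in place of merged exons, 12 of 40 ranks changed, and *MXD4* kept the first rank in every group.

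*MXD4* and *MYC* took a larger part of the summed level with AZD5153. The share of *MXD4* in the summed level per kilobase of the 10 members went from 20.6% in DMSO to 39.6% with AZD5153 at 24 h and from 27.6% to 54.6% at 48 h. The share of *MYC* went from 17.5% to 26.9% at 24 h and from 11.8% to 13.6% at 48 h. The 6 genes for the partners other than the MYC family (*MXD1*, *MXD3*, *MXD4*, *MXI1*, *MNT* and *MGA*) together held 65.7% in DMSO and 64.3% with AZD5153 at 24 h, with overlapping ranges. At 48 h they held 75.2% and 78.8%. The ratio of *MYC* to *MAX* was 1.05 in DMSO and 3.08 with AZD5153 at 24 h, and 0.905 and 1.80 at 48 h. The ratio of *MXD4* to *MYC* was 1.18 and 1.47 at 24 h, and 2.35 and 4.01 at 48 h. The ratio of *MXD4* to *MXI1* went from 1.32 to 8.00 at 24 h and from 1.41 to 8.49 at 48 h. These are ratios of RNA, and protein was not analysed here.

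**Figure D3:**
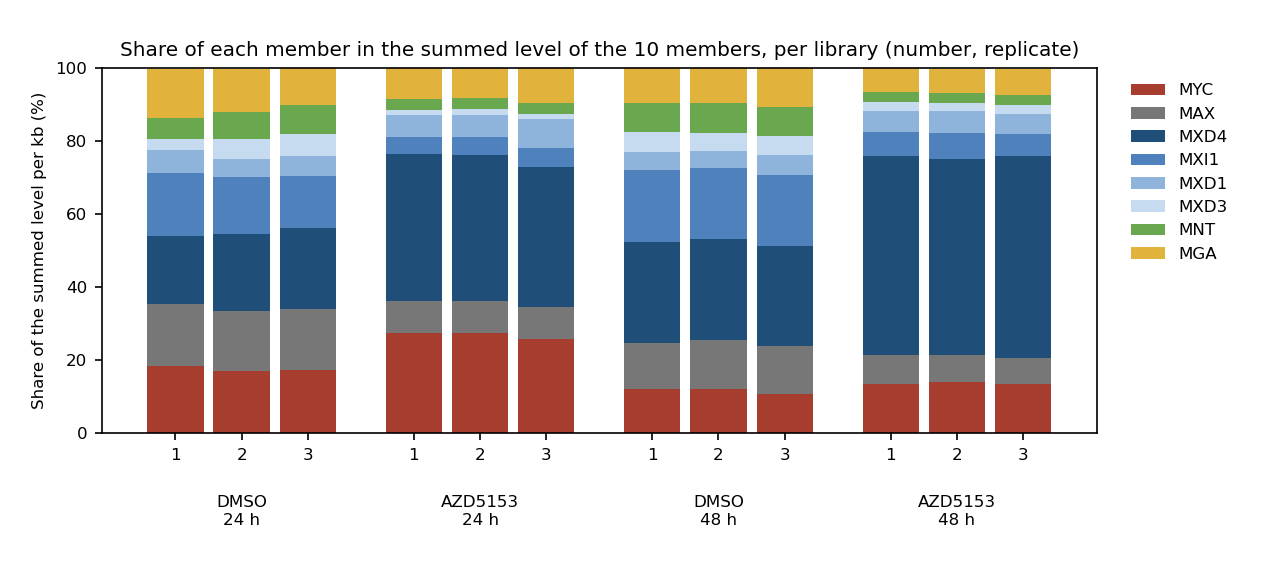
Share of each member in the summed normalized count per kilobase of the 10 members (vertical axis, percent) in each of the 12 libraries. *MYCN* (0%) and *MYCL* (at most 0.0786%) are not drawn, and the dark blue band of *MXD4* runs from 18.6% to 22.2% in DMSO at 24 h and from 53.7% to 55.4% with AZD5153 at 48 h.

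In the parallel branch of the network, MLX takes the place of MAX, and of its 3 genes 1 rose and 1 fell at 24 h and 1 rose at 48 h, where 33.9% of all tested genes rose and 34.6% fell at 24 h and 33.1% rose at 48 h. *MLXIP*, which encodes the glucose-responsive factor MondoA, rose at 24 h (means 2604 and 3646, log2 fold change 0.49, adjusted p = 3.7e-06) and 48 h (3514 and 4266, 0.28, adjusted p = 0.00089). The rise at 48 h was not called with equal library totals (0.11) or with quantile normalization (0.13). *MLX* had log2 fold changes of -0.15 (adjusted p = 0.036) and 0.07 (adjusted p = 0.29), the latter negative under both of those scalings (-0.10 and -0.04), and *MLXIPL*, the gene of ChREBP, 0.30 (adjusted p = 0.66) and -0.79 (adjusted p = 0.24) at means of 12.8 to 32.8 normalized counts. The MondoA target genes *ARRDC4* and *TXNIP*, arrestin-domain proteins that limit glucose uptake, both rose. *ARRDC4* went from 208 to 502 at 24 h (log2 fold change 1.28, adjusted p = 7.05e-08) and from 204 to 549.7 at 48 h (1.43, adjusted p = 1.88e-08). *TXNIP* went from 3083 to 3518 at 24 h (0.19, adjusted p = 0.00058, not called with equal library totals) and from 6510 to 10430 at 48 h (0.68, adjusted p = 4.51e-10).

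The cofactors of the network are given as counts of single-gene calls in each list, with no test of a list as a whole. They are to be read against all tested genes, of which 33.9% were called higher and 34.6% lower at 24 h and 33.1% and 33.9% at 48 h. With equal library totals these shares were 27.8% and 40.3% at 24 h and 25.0% and 41.7% at 48 h, and the median of all tested genes was -0.12 and -0.17. Of 10 MYC coactivator genes, 1 rose and 6 fell at 24 h, and 3 rose and 7 fell at 48 h, with a median log2 fold change of -0.18 and -0.23 where all tested genes had a median of 0.00 at each time. With equal library totals 0 rose and 8 fell at 24 h (median -0.31) and 1 rose and 7 fell at 48 h (median -0.40). *SMARCB1*, a SWI/SNF subunit, fell at both times (log2 fold changes -0.43 and -0.30), as did *KAT5*, the TIP60 acetyltransferase (-0.52 and -0.48), though the latter was not called with quantile normalization (-0.32 and -0.16). *TRRAP*, the scaffold that MYC binds, had log2 fold changes of 0.12 and 0.18, both called, but with equal library totals they were 0.00 and 0.01 and were not. Of 13 genes of the SIN3 corepressor, which MXD proteins recruit, 5 rose and 7 fell at 24 h and 4 rose and 6 fell at 48 h, with the shares that rose near those of all genes, and with equal library totals 3 rose and 8 fell at each time. Among those called in the same direction at both times, and by the mean of the 2 log2 fold changes, the histone-binding subunits *RBBP4* (-0.87 and -0.71) and *RBBP7* (-0.80 and -0.46) fell most, and the deacetylase *HDAC1* (0.25 and 0.67, the former not called with equal library totals) and *ARID4B* (0.47 and 0.61) rose most. Of 14 genes of PRC1.6, the complex of *MGA*, 3 rose and 10 fell at 24 h, with a median of -0.36, or 0 and 10 with a median of -0.48 with equal library totals, and 5 rose and 5 fell at 48 h, near the shares of all genes, with a median of -0.08, or 4 and 8 with a median of -0.25 with equal library totals. *PCGF6*, its defining subunit, fell (log2 fold changes -1.09 and -0.81, adjusted p = 5.83e-06 and 0.00012), and the ubiquitin ligase *RNF2* fell too (-0.89 and -0.48), whereas its relative *RING1* rose by 0.35 and 0.43, the former not called with equal library totals. *HDAC1* is counted in this list too, as are *HDAC2* and *WDR5*, which occur in another list.

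Genes for the turnover of MYC protein and for its binding antagonists were called in both directions. Of 13, 7 rose and 4 fell at each time, with medians of 0.38 and 0.22, or 0.25 and 0.05 with equal library totals. Of all tested genes, 33.9% rose and 34.6% fell at 24 h and 33.1% rose and 33.9% fell at 48 h, so the share that fell was near that of all tested genes. *AURKA*, a mitotic kinase that protects MYCN from degradation, fell (log2 fold changes -2.46 and -1.59), from 1655 to 299 normalized counts at 24 h and from 1264 to 422 at 48 h. *CIP2A*, an inhibitor of the phosphatase that destabilizes MYC, fell as well (-1.66 and -0.74). *STUB1*, the ubiquitin ligase CHIP, rose by 0.98 and 1.20, and *PPP2R5A*, a regulatory subunit of that phosphatase, rose by 0.86 and 0.75. *AURKA* is also a cell cycle gene, and all 10 genes of the proliferation list fell at both times, with medians of -1.97 and -1.21. Among these, the cyclin gene *CCNA2* had log2 fold changes of -2.72 and -1.63 and the replication helicase subunit *MCM5* of -2.48 and -2.20. The part of cell cycle activity in the members' values was not tested.

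Genes that MYC is known to activate were called in both directions. Of 36, 35 were tested and *CCND2* was not. At 24 h, 13 rose, 14 fell and 8 did not pass the test, and at 48 h 19 rose, 13 fell and 3 did not pass. The 24 h counts are near the shares of all tested genes given above. The median log2 fold change was -0.05 at 24 h and 0.19 at 48 h. The split depended on the scaling. With equal library totals it was 10 higher and 18 lower at 24 h (median -0.18) and 13 and 15 at 48 h (median 0.02), and with quantile normalization 9 and 17 at 24 h (median -0.16) and 13 and 13 at 48 h (median -0.07). Of all tested genes, quantile normalization gave 36.5% higher and 31.9% lower at 24 h and 37.2% and 31.1% at 48 h. By the mean of the 2 log2 fold changes *ODC1*, the rate-limiting enzyme of polyamine synthesis, rose most, from 9512 to 47850 normalized counts at 24 h (log2 fold change 2.33, adjusted p = 2.4e-16) and from 4497 to 29090 at 48 h (2.69, adjusted p = 4.15e-17). *EIF4A1*, a translation initiation helicase, rose by 1.69 and 0.80, at means of only 113.5 and 365.7 normalized counts in DMSO and AZD5153 at 24 h. At 48 h its means were 90.8 and 161. Overlaps with other genes were looked up for the members only, so read assignment to *EIF4A1* was not tested. *TERT*, the telomerase catalytic subunit, fell (-1.63 and -1.92) at means of 10.6 to 59.4 normalized counts, and *CDK4* fell too (-0.90 and -0.95). Of 10 genes that MYC is known to repress, 8 were tested, of which 5 rose and 3 fell at 24 h and 3 rose and 3 fell at 48 h, the latter near the shares of all tested genes. *CDKN1A*, which encodes the cell cycle inhibitor p21, rose from 255 to 6975 normalized counts at 24 h (log2 fold change 4.78, adjusted p = 5.63e-15) and from 302 to 4934 at 48 h (4.03, adjusted p = 4.37e-14). *NDRG1* rose by 1.62 and 1.01, and *PDGFRB* fell (-1.97 and -2.01). *NDRG2* fell from 23.8 to 2.01 normalized counts at 24 h (adjusted p = 0.00095) and from 25.6 to 5.03 at 48 h (adjusted p = 0.0032).

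**Figure D4:**
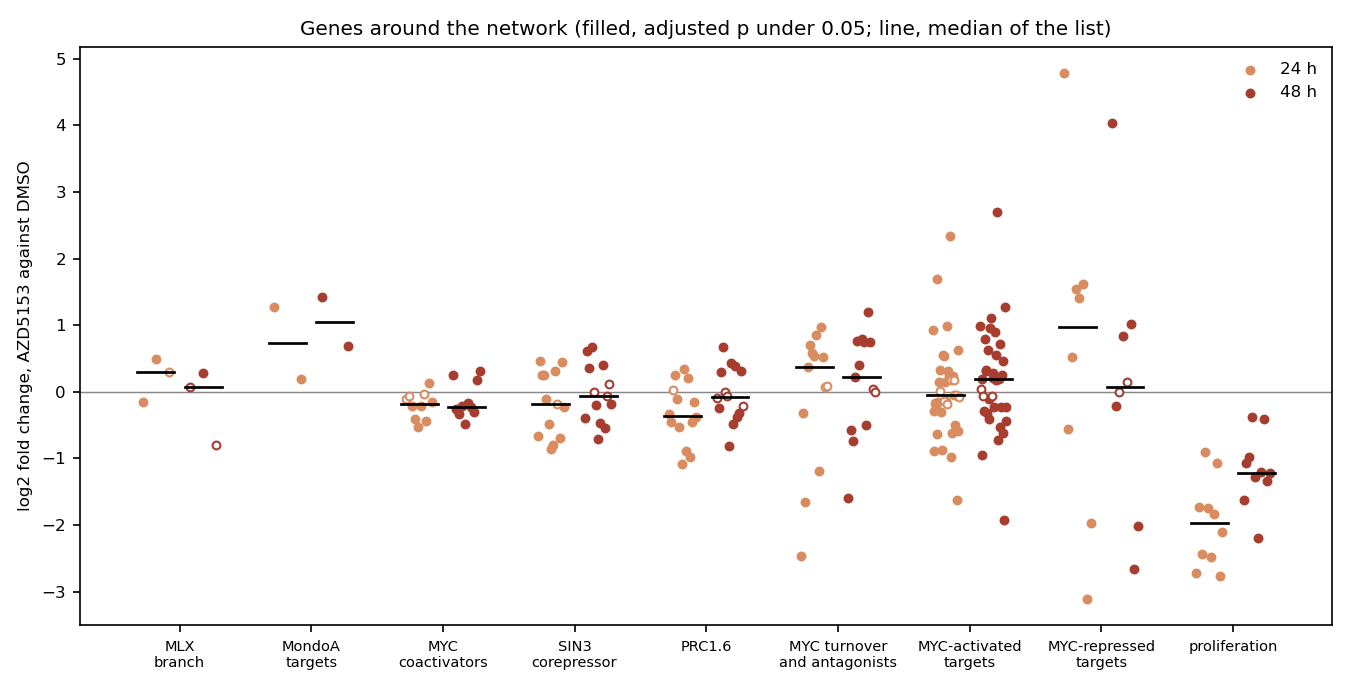
Log2 fold change (vertical axis) of each tested gene of 9 lists with AZD5153 at 24 h and 48 h, with the list median as a line. All 10 proliferation genes lie below 0, the MYC-activated targets lie on both sides with medians of -0.05 and 0.19, and the highest points are *CDKN1A* (4.78 and 4.03).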

How the data were processed

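RNA-Seq libraries of SF8628 cells were grouped by the treatment, time and replicate in their labels. Paired-end reads of 150 bp had been mapped to hg38 by the authors (STAR), assigned to genes (HTSeq-count) and analysed in DESeq2 under its defaults. Tool versions, annotation and strand setting are not given in the sources used here. The values the authors deposited are a signal, gene counts divided by 1 size factor per library. All values (100%) were whole multiples of 1 step per library within a tolerance of 0.1, so reads could be recovered. The deposited fold changes and p-values of the authors' own comparison were not used. CUT&RUN libraries of the series are not analysed here.

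Members were matched to gene identifiers with GENCODE 44 on GRCh38, which also gave exon lengths and overlaps. Of the list genes, 1 (*MXI1-AS1*) had no match. Promoter sequences are from RefSeq (GRCh38.p14). Genes averaging 10 or more normalized counts were tested on log2(normalized count + 1) with limma 3.58.1 in R 4.3.3 (lmFit, eBayes with a trend, 4 group means in 1 fit, 8 residual degrees of freedom), with Benjamini-Hochberg adjustment over all 15599 genes at 0.05. The design had foreseen edgeR only for raw counts. Alternatives were a pseudocount of 0.5 or 10, no minimum mean or 100, equal totals, quantile normalization, a replicate block, edgeR 4.0.16 and DESeq2 1.42.0 on recovered reads, a minimum log2 fold change of 1 and leaving out each library. The test was run on simulated data first. From each list, all genes were named where it held at most 4, otherwise the 2 largest increases and the 2 largest decreases among genes called in the same direction at both times. Members and gene lists were chosen with earlier results of these data known.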

Additional observations from a re-analysis of the deposited data

Results flagged for a closer look

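The AZD5153 effect on *MYC* differed between the times by the test of the difference itself. Its log2 fold change was 1.47 at 24 h and 0.82 at 48 h, a difference of -0.66 (limma adjusted p = 0.00056), and it kept its sign and its call in all 21 alternative fits, with values from -0.73 to -0.61.

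The AZD5153 effect on *MGA* also differed between the times. Its log2 fold change was 0.42 at 24 h and 0.07 at 48 h, a difference of -0.35 (limma adjusted p = 0.012), called in all 21 alternative fits with values from -0.44 to -0.28.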

How the results depend on the processing

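Of 840 log2 fold changes of members under alternative fits, 801 kept their direction and their side of the threshold. Many of them could not change. Another minimum mean, the replicate block or the loss of a library outside the comparison leaves the log2 fold change as it was. In those fits only the p-value could move. *MYC*, *MXD1*, *MXD4*, *MXI1* and *MNT* kept their calls at 24 h and 48 h in all 21 fits, as *MGA* did at 24 h. Requiring an absolute log2 fold change of 1 left 3 members at 24 h (*MYC*, *MXD1*, *MXD4*), 1 at 48 h (*MXD4*), 0 in the difference of the effects, 0 between times in DMSO and 1 (*MYC*) between times with AZD5153. Leaving out 1 library gave 2 to 4 members in the difference of the effects, the 4 without DMSO 24 h replicate 3, and 6 to 7 at 24 h, 5 to 7 at 48 h, 3 to 5 between times in DMSO and 5 to 7 with AZD5153. Of the 15599 tested genes, these fits called 4885 to 5309 higher and 5092 to 5494 lower at 24 h. At 48 h they called 4791 to 5556 and 4905 to 5608, and in the difference 1794 to 2724 and 1213 to 1977. Between times they called 1935 to 2831 and 2507 to 3204 in DMSO and 1918 to 3244 and 1703 to 2856 with AZD5153.

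Equal library totals moved the median log2 fold change of all tested genes to -0.12 at 24 h and -0.17 at 48 h. With them the sign of *MGA* at 48 h turned (-0.10, and -0.039 with quantile normalization), and *MAX* was called at 24 h (-0.20, or -0.08 beyond that shift). Quantile normalization also turned *MXD1* (-0.0075) and *MGA* (0.00093) between times in DMSO. Over the fits that each left out 1 library, the difference of the effects for *MXD3* ranged from -0.020 to 0.58 (0.22 in the main fit). The change of *MXD1* with time in DMSO ranged from -0.0041 to 0.13 (0.08 in the main fit). With equal totals, genes called higher numbered 0 for the MLX branch at 48 h, 1 for MondoA targets at 24 h, 0 and 1 for MYC coactivators at 24 h and 48 h, 3 for the SIN3 corepressor at 24 h, 0 for PRC1.6 at 24 h and 0 for neighbouring transcripts at 24 h, and 8 genes of PRC1.6 were lower at 48 h. The cause of these changes was not tested. On the recovered reads, edgeR called 5394 genes higher and 5298 lower at 24 h and 5127 and 5450 at 48 h, and DESeq2 called 5217 and 5390 at 24 h and 5162 and 5345 at 48 h.

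No pairing of the libraries by replicate number was seen (correlations of same-numbered deviations from -0.15 to 0.04, and 4 of 12 libraries closest to their own number). With 3 libraries per group and DMSO 24 h replicate 1 apart from its partners, this check cannot exclude a pairing. The labels do not say whether same-numbered libraries belong together. With the replicate block, 7 members were called at 24 h, 5 at 48 h, 2 in the difference of the effects, 3 between times in DMSO and 5 with AZD5153. Of the 15599 tested genes, that fit called 5207 higher and 5319 lower at 24 h and 5078 and 5212 at 48 h. It called 2012 and 1426 in the difference of the effects. Between times it called 2405 and 2854 in DMSO and 2313 and 1999 with AZD5153. Depth limits *MYCN*, which had 0 reads, and *MYCL*, which could be tested only without a minimum mean and was then not called in any comparison.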

Other observations

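Each tested member had other genes with a like pattern over the 12 libraries, which fall into 4 groups, so these correlations mostly describe shared group differences. They are Pearson correlations of log2(normalized count + 1), chosen as the highest among all tested genes. *MYC* was closest to *CCN2*, which encodes a secreted matricellular protein (r = 0.992), and to *URB1*, a ribosome assembly factor (r = 0.987). *CCN2* had means of 1689 and 10720 normalized counts in DMSO and AZD5153 at 24 h and of 855 and 2599 at 48 h.

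*MXD4* was closest to *SLC8B1* (r = 0.998), the mitochondrial sodium-calcium exchanger, and to *TMEM175* (r = 0.997), a lysosomal ion channel. *MXI1* was closest to the nucleoside transporter *SLC29A1* (r = 0.992) and to the corepressor gene *RCOR2* (r = 0.99). *MXD1* was closest to *KRBOX5* (r = 0.987) and *TRIM68* (r = 0.982), and *MNT* to *CDC42EP5* (r = 0.988) and *PHLDA3* (r = 0.983). The best values were lower for *MGA* (*RUNX1*, 0.965, and *ZNF75A*, 0.955), *MXD3* (*GPR137*, 0.955, and *LIMK1*, 0.953) and *MAX* (*MIEF1*, 0.954, and *HCFC1*, 0.94).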
